A study of Mus musculus with 7 samples.

Results

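Immediate early genes are the first genes to be transcribed when a cell is stimulated, and the 10 described here, *Fos*, *Fosb*, *Jun*, *Junb*, *Egr1*, *Ier2*, *Atf3*, *Dusp1*, *Nr4a1* and *Arc*, were taken by name from the 38124 genes of the count table. They were measured by RNA-Seq in 7 libraries made from the brightest RFP-positive cells (High RFP) sorted from embryonic mouse neocortex at E15.5. The control group (control construct) has 3 libraries, numbered 1, 2 and 4, and the Sox9 group (construct for conditional Sox9 expression) has 4, numbered 1 to 4. All embryos of both groups were heterozygous for *Tis21*-CreERT2, their mothers received tamoxifen, electroporation was performed at E13.5, and cells were collected 48 hr later. Cre driven by *Tis21* acts in BP-genic aRG (apical radial glia that give rise to basal progenitors) and their progeny, and it switches on nuclear RFP in both groups, together with Sox9 in the Sox9 group only. According to the methods, the cortices of several embryos were pooled for each experiment and were dissociated with papain before live, RFP-expressing cells were sorted, so each library was made from cells that had been taken out of the tissue and kept in suspension.

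Immediate early genes need no newly made protein to be switched on. Growth factors, depolarization or mechanical stress reach them through MAP kinases and calcium, which act on the transcription factors SRF, ELK1 and CREB already waiting at their promoters, and the transcripts appear within minutes and decay fast. In the developing cortex they are known as readouts of growth factor signalling and of neuronal activity, and in cells prepared from tissue they are the genes best known to be induced by enzymatic dissociation itself. The comparison of the groups asks whether their levels differed between cells with the control construct and cells with the Sox9 construct.

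The libraries held 4429704 to 12907778 counts on genes, with mostly lower totals in the Sox9 group (4429704 to 10520214) than in the control group (10465562 to 12907778). *Sox9* mRNA itself was 63.7 ± 27.4 CPM (SD, n = 3; CPM are counts scaled to a common library size) in control and 39.9 ± 8.30 CPM (SD, n = 4) in the libraries labelled Sox9, with ranges that overlapped (log2 fold change -0.68, edgeR quasi-likelihood test, adjusted p = 0.0493), and the Sox9 group is named by its label. *Eomes* mRNA, which encodes Tbr2, was lower in that group (log2 fold change -2.25, edgeR adjusted p = 4.9e-05). The sorted cells carried the transcripts of cortical cells: the summed level of 10 neuron markers was 14141 to 17493 CPM in control and 12890 to 15038 CPM in Sox9, and that of 10 intermediate progenitor markers was 895 to 991 CPM and 727 to 938 CPM. The counts of mitochondrial genes made up 0.423% to 0.992% of each library, on average 0.557% in control and 0.798% in Sox9. The part of depth and of this share in the results was not tested. Reads were not tagged with molecular identifiers, so counting error alone is covered where a count of 0 is given a limit. The labels call the libraries biological replicates, and the p-values measure the spread between these libraries.

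All 10 immediate early genes were detected, and at levels that ranged widely. Compared per kilobase of exon, so that genes of different length can be set side by side, *Fos*, the DNA-binding partner of JUN in the AP-1 complex, was by far the most abundant, with a mean over the 7 libraries of 32.5 CPM per kb (16.4 to 62.1), a level above that of 90.2% of the genes tested. *Ier2*, a small nuclear protein of the growth factor response, followed with 6.11 CPM per kb (2.43 to 10.5), and *Dusp1*, the phosphatase that switches MAP kinases off, with 4.02 CPM per kb (2.99 to 4.76). The lowest library of *Fos* was above the highest library of *Ier2*, whereas the ranges of *Ier2* and *Dusp1* overlapped.

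*Jun*, the main partner of the FOS proteins, was lower again, at 2.03 CPM per kb (1.22 to 2.63), its highest library below the lowest library of *Dusp1*. The remaining genes lay close together and their ranges overlapped from one to the next. They were *Egr1*, a zinc finger transcription factor of the growth factor response, at 1.10 CPM per kb, *Atf3*, a stress-induced bZIP repressor, at 0.911 CPM per kb, and *Nr4a1*, an orphan nuclear receptor, at 0.885 CPM per kb. The level of *Arc*, a neuronal gene that controls AMPA receptor traffic at synapses, was 0.718 CPM per kb, and those of *Junb* and *Fosb* were 0.445 and 0.260 CPM per kb. *Fosb*, the lowest, was above 4.79% of the genes tested. *Fos* alone contributed 50.3% to 74.6% of the counts of the 10 genes in each library.

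**Figure D1:**
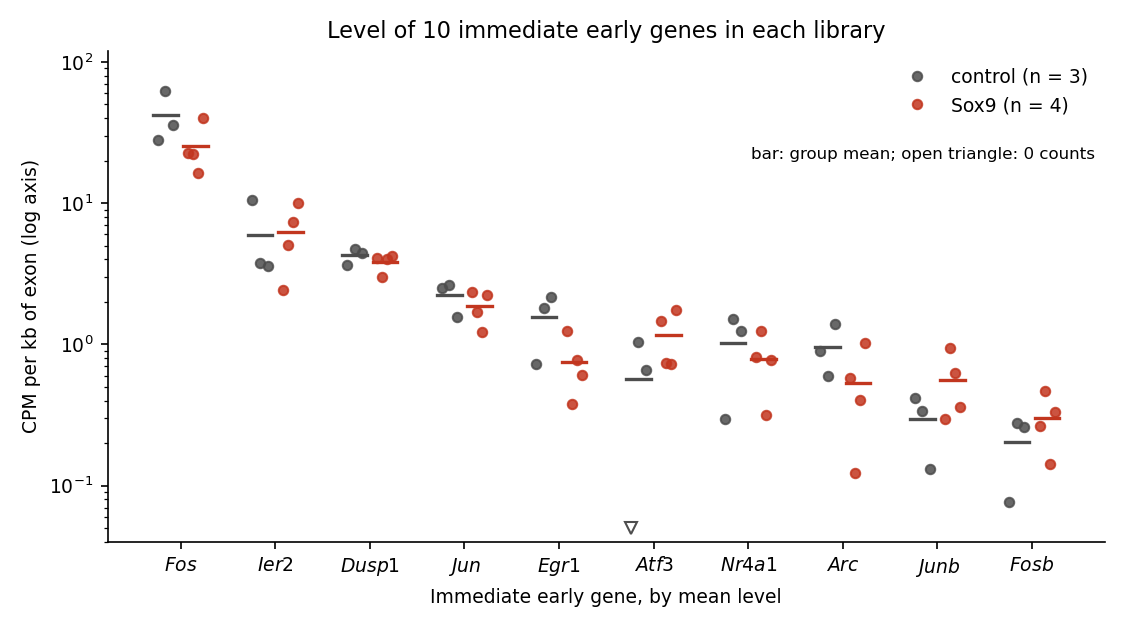
Level of each immediate early gene in each library, in CPM per kilobase of exon on a log axis, with control libraries (n = 3) in grey, Sox9 libraries (n = 4) in red, bars for group means and an open triangle for the library with 0 counts. *Fos* lies above the other genes in every library, and for all 10 genes the points of the groups overlap.

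The promoters of these genes are where the signal arrives, and 7 of the 10 genes were found in RefSeq's promoter sequences (GRCm38.p6), namely *Fos*, *Fosb*, *Jun*, *Junb*, *Atf3*, *Dusp1* and *Nr4a1*. Over the 250 bases before the start site, on both strands, TGACG, the core bound by CREB and ATF proteins, was present in 6 of these 7 promoters, all but that of *Jun*, and in 17.8% of all 32851 promoters of the table. The complete cyclic AMP response element TGACGTCA, which contains that core, was present in 1 of the 7 promoters, that of *Dusp1*, at 143 bases before its start, and in 1.55% of all promoters. The AP-1 motif TGANTCA was found in 0 of the 7 (6.75% of all promoters) and the CArG box, the motif of SRF, in 0 of the 7 (1.47%), within these 250 bases. Only exact matches were searched, so variant sites and sites further away were not counted. *Fos*, *Nr4a1*, *Junb* and *Dusp1* are shown because they represent the highest and the lower levels and the ways in which the core occurs, being repeated on the strand of the gene, repeated on the other strand, single, and part of the complete palindrome. The sequences are the stretches from 150 bases before the start that lie outside annotated exons, on the strand of the gene, at chr12:85473740-85473889 (+), chr15:101266696-101266845 (+), chr8:84978749-84978898 (-) and chr17:26508520-26508622 (-), with the core on either strand in capitals:
Fos: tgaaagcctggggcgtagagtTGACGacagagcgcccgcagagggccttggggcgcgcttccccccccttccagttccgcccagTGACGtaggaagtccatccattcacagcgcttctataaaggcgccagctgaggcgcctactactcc
Nr4a1: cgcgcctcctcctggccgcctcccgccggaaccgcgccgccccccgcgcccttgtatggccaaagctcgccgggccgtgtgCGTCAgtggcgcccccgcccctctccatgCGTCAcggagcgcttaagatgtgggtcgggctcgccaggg
Junb: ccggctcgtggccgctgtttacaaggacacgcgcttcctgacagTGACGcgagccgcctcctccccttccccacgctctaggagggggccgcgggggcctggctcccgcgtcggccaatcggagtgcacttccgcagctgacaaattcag
Dusp1: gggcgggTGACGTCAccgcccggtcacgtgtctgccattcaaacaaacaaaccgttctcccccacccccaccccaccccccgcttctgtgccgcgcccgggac

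None of the immediate early genes passed the test between the groups, although *Fos* and *Egr1* came nearest, both with lower means in the Sox9 group. Of the 10 genes, 9 were tested and *Junb* was removed by the filter on low counts. At an adjusted p-value under 0.01 (edgeR quasi-likelihood test, Benjamini-Hochberg), 0 of the 9 were higher and 0 were lower, against 14.7% of the 16522 genes tested, 11.3% higher and 3.43% lower. Over all genes, 1862 were higher and 567 lower. With library totals in place of TMM factors these counts were 2425 and 226, and with DESeq2's size factors 1874 and 634. They were 363 and 284 with cyclic loess and limma-trend, and 2066 and 1391 under DESeq2, where the test differed too. At an unadjusted p-value under 0.05 the count was 2 of 9, *Fos* and *Egr1*, against 44.0% of all genes tested, and DESeq2 called 0 of the 10. The libraries of the groups overlapped for each of the 10 genes, whereas 39.3% of the genes tested had groups that did not overlap. The log2 fold change was below 0 for 6 genes and above 0 for 3, with a median of -0.27, beside a median of -0.0031 over all genes tested. The 95% intervals had a median width of 1.86 on the log2 scale, and those of 7 of the 9 genes included 0. In bulk RNA, fewer cells expressing a gene and less RNA per cell cannot be told apart.

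**Figure D2:**
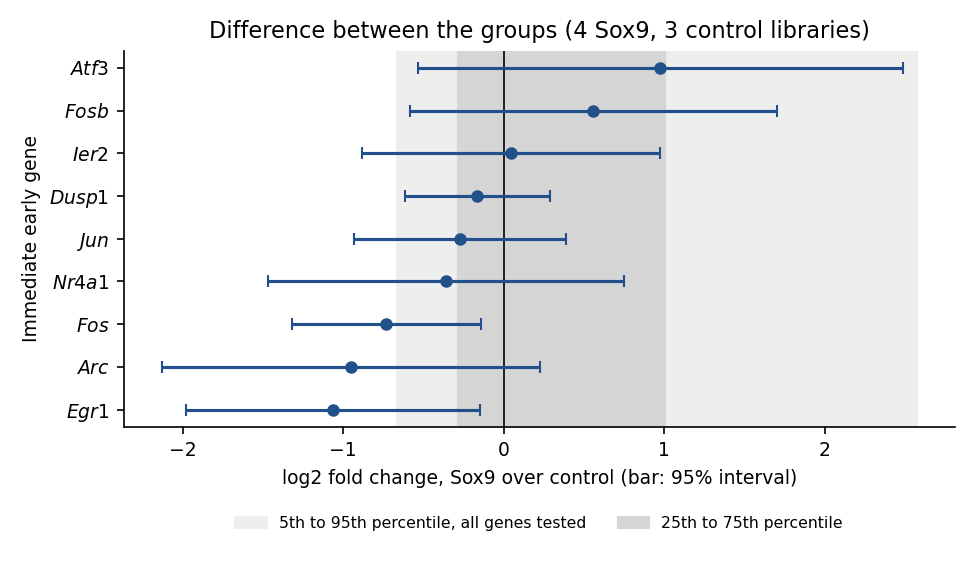
Log2 fold change between Sox9 (4 libraries) and control (3 libraries) of the 9 immediate early genes tested, as points with 95% intervals, on bands for the 5th to 95th and the 25th to 75th percentile of all 16522 genes tested. The intervals of *Fos* and *Egr1* lie below 0 and those of the other 7 genes include 0.

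The AP-1 family, the dimers of FOS and JUN proteins that bind target genes of the early response, was led by *Fos* (ENSMUSG00000021250, chr12:85473890-85477273). *Fos* was at 65.5, 146 and 83.5 CPM in control replicates 1, 2 and 4, and at 53.4, 52.7, 38.7 and 94.9 CPM in Sox9 replicates 1 to 4. Thus 3 of the 4 Sox9 libraries lay below every control library, and Sox9 replicate 4 lay above 2 of the 3 controls. The group means were 98.4 ± 42.3 CPM (SD, n = 3) and 59.9 ± 24.3 CPM (SD, n = 4), and the log2 fold change of -0.73 (SE 0.28, 95% interval -1.32 to -0.14) had an adjusted p of 0.0545 by the edgeR quasi-likelihood test. The value rested on control replicate 2, the library with the highest *Fos* level: without it the log2 fold change was -0.33 (adjusted p = 0.368 by edgeR). *Fos* passed the threshold under 2 processing choices: without the filter on low counts the edgeR adjusted p was 4.3e-06 (log2 fold change -0.83), and with a replicate block by the numbers of the sample descriptions it was 0.00867 (log2 fold change -0.97). With a block by title numbers the edgeR adjusted p was 0.173 (log2 fold change -0.53).

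*Fosb* (ENSMUSG00000003545, chr7:19302696-19310051), a second FOS protein whose splice forms include the long-lived delta-FosB, was low throughout, with 5 to 31 counts per library. Its level was 0.476, 1.73 and 1.62 CPM in control and 1.64, 2.92, 0.891 and 2.09 CPM in Sox9. Control replicate 1 was the lowest library and Sox9 replicate 2 the highest, and the groups overlapped. Its log2 fold change was 0.56 (SE 0.54, edgeR adjusted p = 0.450), and with cyclic loess normalization it was -0.57. It was 0.16 without control replicate 1, 0.23 without Sox9 replicate 2, and 0.85 without control replicate 2.

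*Jun* (ENSMUSG00000052684, chr4:95049034-95052222) was among the steadiest of the genes. It was at 8.0, 8.40 and 4.97 CPM in control and 7.53, 5.37, 3.9 and 7.11 CPM in Sox9. Apart from Sox9 replicate 3, the Sox9 libraries fell within the range of the controls. This gave a log2 fold change of -0.27 (SE 0.31, 95% interval -0.93 to 0.39, edgeR adjusted p = 0.534), which became -0.082 without Sox9 replicate 3 and -0.46 without control replicate 4. An antisense gene, *Junos*, overlaps *Jun* over 689 bp and had 8 to 25 counts per library, beside 34 to 97 for *Jun*.

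*Junb* (ENSMUSG00000052837, chr8:84974484-84978718), an AP-1 subunit that often restrains JUN, had only 10, 9 and 3 counts in control and 5, 23, 13 and 4 counts in Sox9. These correspond to 0.952, 0.779 and 0.304 CPM and to 0.684, 2.2, 1.45 and 0.836 CPM, with the highest value in Sox9 replicate 2. Without the filter its log2 fold change was 0.88 (edgeR adjusted p = 0.315), and over the 7 alternatives in which it could be fitted it ranged from 0.37 to 1.24. *Junb* shares 351 bp with *Prdx2* on the opposite strand, a gene with 7292 to 20215 counts per library, and the sources used here do not give whether counting used strand, so reads of the shared stretch cannot be told apart.

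Among the other transcription factors, *Egr1* (ENSMUSG00000038418, chr18:34859823-34864984) had the lowest log2 fold change of the immediate early genes tested. Its level was 3.24, 8.05 and 9.73 CPM in control and 5.61, 1.70, 3.45 and 2.72 CPM in Sox9. All 4 Sox9 libraries lay below the control mean, but only 2 of them below the lowest control, which was replicate 1. The means of 7.01 ± 3.37 CPM (SD, n = 3) and 3.37 ± 1.66 CPM (SD, n = 4) gave a log2 fold change of -1.06 (SE 0.43, 95% interval -1.98 to -0.15) with an edgeR adjusted p of 0.0696. With each library left out in turn it stayed between -1.42 and -0.74. Without the filter on low counts the edgeR adjusted p was 0.00698.

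*Nr4a1* (ENSMUSG00000023034, chr15:101254269-101274795) was at 1.05, 5.28 and 4.36 CPM in control and 2.87, 4.33, 1.11 and 2.72 CPM in Sox9. Both groups held 1 library near 1 CPM, control replicate 1 and Sox9 replicate 3, and all Sox9 libraries were within the range of the controls. The log2 fold change was -0.36 (SE 0.52, edgeR adjusted p = 0.630). Without control replicate 2 it was 0.035.

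*Atf3* (ENSMUSG00000026628, chr1:191170296-191218039) was not detected in control replicate 1, with 0 counts, which allows up to 0.286 CPM (3 counts). The other controls had 26 and 14 counts and the Sox9 libraries 23, 17, 14 and 18 counts. In CPM these were 2.25 and 1.42 in control, and 3.15, 1.6, 1.56 and 3.76 in Sox9, so that Sox9 replicates 1 and 4 stood above all controls. The log2 fold change was 0.98 (SE 0.71, 95% interval -0.54 to 2.49, edgeR adjusted p = 0.308), the highest of the immediate early genes tested. It moved between 0.38 and 1.77 when single libraries were left out, with adjusted p-values of 0.130 to 0.609.

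*Dusp1* (ENSMUSG00000024190, chr17:26505590-26562128) varied least, by 1.59 times between its lowest and highest library. It was at 12.1, 15.8 and 14.6 CPM in control and 13.6, 9.89, 13.4 and 14 CPM in Sox9. Apart from Sox9 replicate 2, the lowest of all, the Sox9 libraries were within the range of the controls. The log2 fold change was -0.16 (SE 0.21), with a 95% interval that corresponds to a ratio of Sox9 to control between 0.653 and 1.22 (edgeR adjusted p = 0.587). It became -0.039 without Sox9 replicate 2, -0.078 without control replicate 2 and -0.28 without control replicate 1. *Dusp1* is overlapped on the opposite strand by *Ergic1* over 640 bp (138 to 666 counts per library) and by the pseudogene *Gm8225* over 956 bp (1 to 11 counts).

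*Ier2* (ENSMUSG00000053560, chr8:84661331-84662852) was highest in a library in which other immediate early genes were lowest. It was at 16, 5.72 and 5.47 CPM in control and 3.70, 7.72, 11.3 and 15.3 CPM in Sox9. That library was control replicate 1, which held the lowest *Fosb*, *Atf3* and *Nr4a1*, followed by Sox9 replicate 4. The means of 9.06 ± 6.01 CPM (SD, n = 3) and 9.48 ± 4.93 CPM (SD, n = 4) differed by less than the spread within either group (log2 fold change 0.043, SE 0.44, edgeR adjusted p = 0.95). The 95% interval covers ratios of Sox9 to control from 0.541 to 1.96. The sign of the log2 fold change depended on the processing, being below 0 under 9 of 18 alternatives.

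*Arc* (ENSMUSG00000022602, chr15:74669083-74672570) was at 2.76, 1.82 and 4.26 CPM in control and 1.78, 0.377, 1.23 and 3.13 CPM in Sox9. The spread was the widest among the 9 genes detected in every library, 11.3 times from Sox9 replicate 2, with 4 counts, to control replicate 4, with 42 counts. As for *Fos*, 3 Sox9 libraries lay below every control and Sox9 replicate 4 did not. The log2 fold change was -0.95 (SE 0.55, 95% interval -2.13 to 0.23, edgeR adjusted p = 0.2). With a library left out it ranged from -0.55 (without Sox9 replicate 2) and -0.58 (without control replicate 4) to -1.40 (without Sox9 replicate 4). It was -1.91 with cyclic loess (limma-trend adjusted p = 0.0268) and -1.48 with a replicate block by description numbers (edgeR adjusted p = 0.0498). With a block by title numbers it was -0.98 (edgeR adjusted p = 0.199).

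Differences between libraries of 1 group were large for these genes. The biological coefficient of variation, edgeR's estimate of the relative SD between libraries of a group beyond counting error, was above the trend for genes of like abundance in 7 of the 9 genes tested, beside 34.6% of all genes tested. For *Fos* it was 0.258 where the trend was 0.147, a ratio higher than that of 99.4% of the genes tested. *Ier2* (0.390 against 0.243) and *Atf3* (0.572 against 0.370) were above 98.8% and 98.3% of genes in the same ratio, *Nr4a1* above 95.7%, *Egr1* above 93.3% and *Arc* above 91.8%. *Fosb* was less far from the trend, above 81.5% of genes. *Jun* (0.265 against 0.273) and *Dusp1* (0.189 against 0.219) lay below the trend.

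**Figure D3:**
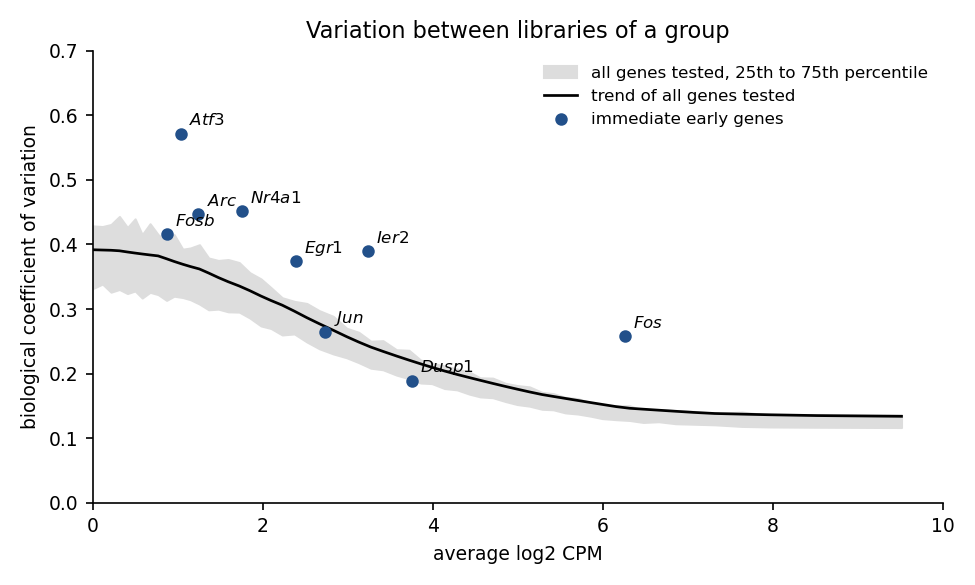
Biological coefficient of variation against average log2 CPM for the 9 immediate early genes tested (blue), with the trend (line) and the 25th to 75th percentile (band) of all 16522 genes tested. *Fos*, *Ier2*, *Atf3*, *Nr4a1*, *Egr1* and *Arc* stand above the band and *Fosb* at its upper edge, whereas *Jun* and *Dusp1* lie below the trend.

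When each gene was centred on its own mean over the 7 libraries on the log2 CPM scale, the mean over the 9 genes was -0.46, 0.42 and 0.28 in control replicates 1, 2 and 4 and 0.043, -0.27, -0.39 and 0.38 in Sox9 replicates 1 to 4. Control replicate 2 and Sox9 replicate 4 were the highest libraries, with 7 and 8 of the 9 genes above their own mean, and control replicate 1 and Sox9 replicate 3 the lowest, with 3 genes each. The group means were 0.080 ± 0.48 (SD, n = 3) and -0.060 ± 0.34 (SD, n = 4). The place of control replicate 1 rested on *Atf3*, which had 0 counts there: without *Atf3*, an alternative chosen after seeing the data, its mean was -0.15, above Sox9 replicates 2 (-0.32) and 3 (-0.44). The group means were then 0.19 ± 0.30 (SD, n = 3) and -0.14 ± 0.31 (SD, n = 4), and the groups still overlapped, with Sox9 replicate 4 at 0.27. In control replicate 1, *Atf3*, *Fosb* and *Nr4a1* were at their lowest while *Ier2* was at its highest, and Sox9 replicate 2 held the lowest *Egr1*, *Dusp1* and *Arc* but the highest *Fosb*.

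**Figure D4:**
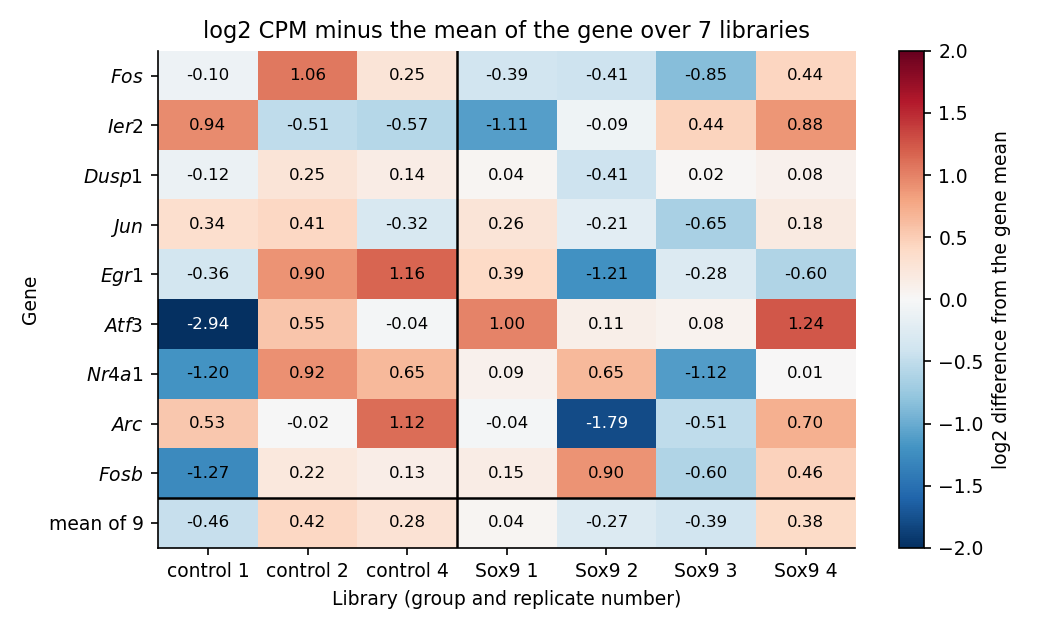
Log2 CPM of each immediate early gene tested minus its own mean over the 7 libraries, by library, with the mean over the 9 genes in the bottom row and colours limited at -2 and 2. Control replicate 2 and Sox9 replicate 4 are high in most genes, and control replicate 1 combines the highest *Ier2* with the lowest *Atf3*, *Fosb* and *Nr4a1*.

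By the root mean square distance of centred log2 CPM over the 7 libraries, the profiles nearest to the mean of the 9 genes, among 8242 other genes with a mean of at least 10 CPM, were those of *Selenon* (0.115), *Gatad2b* (0.117), *Zer1* (0.125), *Chuk* (0.135) and *Miat* (0.138). The distance of the immediate early genes themselves, most of which were below 10 CPM, ran from 0.248 for *Dusp1* (231 of the 8242 genes were nearer) and 0.372 for *Fos* (3063 nearer) to 0.914 for *Ier2* and 1.09 for *Atf3* (8091 and 8166 nearer).

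The rest of the early response was followed through 7 further lists with 192 genes, of which 164 were tested. Of these, 4 were higher and 5 were lower in the Sox9 group (edgeR, adjusted p under 0.01), 5.49% in all beside the 14.7% of all genes tested, and the median log2 fold change was -0.11. Under DESeq2 the share was 14.1%, beside 10.6% of all genes. Among other AP-1 and bZIP genes 0 of 8 passed, and *Fosl2*, a further FOS family member, had the smallest p (log2 fold change 1.12, edgeR adjusted p = 0.145). Among other early transcription factors 0 of 15 passed, with 5 at an unadjusted p under 0.05 (44.0% of all genes tested). *Hes1*, the Notch target that holds radial glia in the progenitor state, was at 8.81 ± 5.04 CPM (SD, n = 3) in control and 3.20 ± 0.915 CPM (SD, n = 4) in Sox9 (log2 fold change -1.46, edgeR adjusted p = 0.0142). *Id1*, a target of BMP signalling, had a log2 fold change of -1.92 (edgeR adjusted p = 0.0182). *Egr2* had a value of 1.92 (edgeR adjusted p = 0.0304) where its relative *Egr1* had -1.06.

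Of the genes listed as feedback regulators, a broad list, 3 of 31 fell and 0 rose, beside 3.43% lower and 11.3% higher of all genes tested. With library totals in place of TMM factors none of the 3 passed (edgeR adjusted p = 0.0125 to 0.0272). *Btg2*, an antiproliferative early gene also known as *Tis21*, whose locus drives Cre in these mice, fell from 94.7 ± 6.91 CPM (SD, n = 3) to 54.3 ± 9.77 CPM (SD, n = 4; log2 fold change -0.81, edgeR adjusted p = 0.0015), with groups that did not overlap. *Spry2*, an inhibitor of receptor tyrosine kinase signalling, fell from 86.2 ± 19.0 to 51.0 ± 8.09 CPM (SD, n = 3 and 4; edgeR adjusted p = 0.0042). *Dusp10*, a phosphatase of JNK and p38, fell from 13.2 ± 5.61 to 5.45 ± 1.31 CPM (SD, n = 3 and 4; edgeR adjusted p = 0.0068).

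Of the secreted and effector early genes, 2 of 20 rose and 0 fell, a share near that of all genes tested (11.3% higher). *Bdnf*, a neurotrophin whose transcription follows activity in neurons, rose from 1.10 ± 0.581 to 6.0 ± 2.26 CPM (SD, n = 3 and 4; log2 fold change 2.46, edgeR adjusted p = 0.0021). *Rasd1*, a small GTPase induced by dexamethasone, had 0 to 4 counts in control and 11 to 24 counts in Sox9 (log2 fold change 3.37, edgeR adjusted p = 0.0021). *Edn1*, the gene of the vasoconstrictor peptide endothelin-1, was at 0 to 7 counts in control and 0 to 33 counts in Sox9 (edgeR adjusted p = 0.0170). Among the kinases and promoter factors upstream of the response, 1 of 47 passed, beside 14.7% of all genes tested: *Mef2c*, a calcium-regulated transcription factor of neurons, fell from 535 ± 134 to 321 ± 49.7 CPM (SD, n = 3 and 4; log2 fold change -0.74, edgeR adjusted p = 0.0046).

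Genes of protein damage and of ER and oxidative stress, which dissociation can also engage, were followed in 2 lists. Of 20 heat shock genes, 1 rose and 0 fell, beside 11.3% and 3.43% of all genes tested. A log2 fold change below 0 was found for 16 of the 20 (50.2% of all genes tested), their median was -0.29, and 12 had an unadjusted p under 0.05 (44.0% of all genes tested). The 1 gene was *Cryab*, a small heat shock protein, at 1.01 ± 0.530 CPM in control and 8.03 ± 5.49 CPM in Sox9 (SD, n = 3 and 4; log2 fold change 2.99, edgeR adjusted p = 0.0021). The inducible HSP70 genes *Hspa1a* and *Hspa1b*, near-identical copies among which reads may be split, were almost silent, with at most 3 and 4 counts in any library, and the filter removed them. Their low level was chosen for mention after the values were seen. *Chordc1*, an HSP90 co-chaperone, was at 152 ± 8.88 CPM and 111 ± 11.1 CPM (SD, n = 3 and 4; edgeR adjusted p = 0.0101).

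Of 23 genes of ER and oxidative stress, 1 rose and 1 fell, beside 11.3% higher and 3.43% lower of all genes tested. *Sesn2*, an inhibitor of mTORC1 under amino acid shortage, rose from 1.64 ± 0.260 to 6.01 ± 2.2 CPM (SD, n = 3 and 4; log2 fold change 1.88, edgeR adjusted p = 0.0028). The metallothionein *Mt1*, a metal-binding protein, fell from 11.2 ± 4.41 to 4.14 ± 0.694 CPM (SD, n = 3 and 4; log2 fold change -1.41, edgeR adjusted p = 0.0041), and its neighbour *Mt2* had a log2 fold change of -1.59 (edgeR adjusted p = 0.0106). These 9 calls depended on the processing. With library totals in place of TMM factors the 4 higher calls stayed and the 5 lower ones were lost, with edgeR adjusted p-values of 0.0106 (*Mt1*) to 0.0293 (*Mef2c*). With cyclic loess normalization 4 genes of the 7 lists were called, 0 higher and 4 lower, of which only *Mt1* was among the 9. Under DESeq2 27 of 192 were called, 5 higher and 22 lower. That share of 14.1% was above the 10.6% of all genes, whereas in the main fit the share was below that of all genes. With a replicate block by title numbers 1 was called, and without control replicate 2, Sox9 replicate 1 or Sox9 replicate 3 the count was 5. The lower calls numbered 7 without control replicate 1 and 1 to 3 without any other library, while the higher ones numbered 3 to 5. *Btg2* passed with any library left out, whereas *Mt1*, *Dusp10*, *Spry2* and *Mef2c* did not pass in most of these fits.

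Markers of cell types moved between the same groups, and their counts stand beside 11.3% higher and 3.43% lower of all genes tested. Radial glia markers summed to 732 to 1450 CPM in control and 331 to 495 CPM in Sox9, and 6 of the 9 tested fell. Of the 10 intermediate progenitor markers 2 fell, *Eomes*, the transcription factor that defines these cells, and *Btg2*, which is in both lists. Of the 10 neuron markers 0 were called (edgeR), with 5 at an unadjusted p under 0.05 (44.0% of all genes tested). Markers of endothelial cells summed to 8.19 to 18.1 CPM in control and 27.4 to 62.1 CPM in Sox9 (2 of 10 rose), those of mural and meningeal cells to 10.2 to 12.9 and 20.9 to 40.5 CPM (2 of 9 rose).

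Microglia markers, another population prone to early gene induction during dissociation, summed to 17.7 to 52.0 CPM and 25.3 to 94.7 CPM (1 of 12 rose), and erythroid markers to 2.38 to 25.1 and 16.3 to 94.7 CPM (1 of 6 rose). The endothelial, mural, microglia and erythroid genes that rose were low in control, with means from 0.430 CPM (*Cspg4*) to 1.53 CPM (*Flt1*). There 3 counts correspond to 0.260 to 0.304 CPM. Over all genes 1862 were higher, and 363 with cyclic loess and limma-trend. Whether the marker calls hold under other normalizations was not tested. None of the markers in these lists was at 0 in every library. The part of these shifts in the levels of the immediate early genes, and of the response genes that rose or fell, was not tested.

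The order of the levels depended on the length used. The FPKM values deposited beside the counts gave *Fos* the first place (mean of 22.2 over the 7 libraries) and *Ier2* and *Dusp1* the next (6.15 and 4.56), as did the CPM per kb of exon. *Atf3*, however, was last by FPKM (0.0424) and sixth per kb of exon. The length that links its counts to its FPKM was 47791 bp, close to the 47744 bp that the gene spans with its introns and 22.2 times its exonic length of 2154 bp. For *Nr4a1* this ratio was 2.26 and for *Fos* 1.44.

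Across the alternatives tried, the log2 fold changes of *Fos*, *Egr1*, *Arc* and *Jun* were below 0 under every one that could be fitted, and that of *Atf3* above 0. Those of *Ier2*, *Dusp1*, *Nr4a1* and *Fosb* took both signs. *Dusp1* was at 0.068 with library totals in place of TMM factors, a scaling under which the median of all genes was 0.22, so that relative to that median it was at -0.16. Relative to the median of all genes it was at -0.14 with FPKM plus 0.1. With a mean FPKM of at least 1 it was at 0.018, and with FPKM plus 1 at 0.0086.

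**Figure D5:**
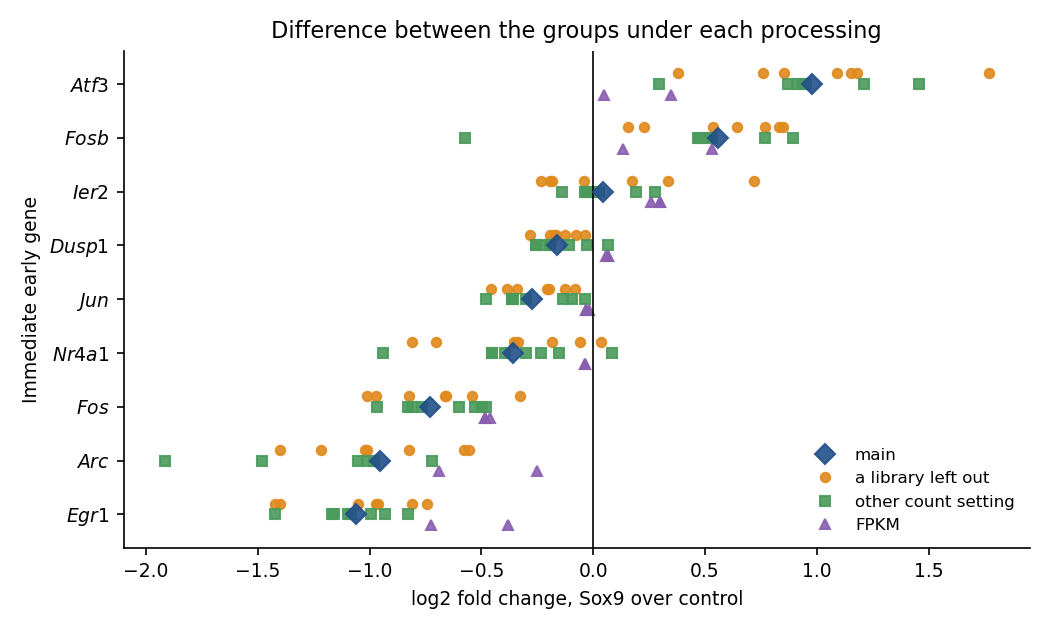
Log2 fold change between Sox9 and control of each immediate early gene tested, as reported (diamond), with each library left out (circles), under the other count settings (squares) and on FPKM values (triangles). Points of *Fos*, *Egr1*, *Arc* and *Jun* stay below 0 and those of *Atf3* above it, while those of *Ier2*, *Dusp1*, *Nr4a1* and *Fosb* lie on both sides.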

How the data were processed

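The 7 RNA-Seq libraries, 3 control and 4 Sox9, were grouped and numbered by their sample titles. The third control is number 4 in its title and 3 in its description. Per the labels and the methods, the authors aligned reads to mm10 (GRCm38) with STAR 2.5.2b. What the authors deposited are raw counts, 1 row per Ensembl gene, and FPKM values. The counter and its use of strand are not given in the sources used here. No column was left out.

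Counts were scaled by TMM, filtered with filterByExpr at its defaults, and tested with edgeR 4.0.16 in R 4.3.3 (quasi-likelihood test, two-sided, no covariate). Benjamini-Hochberg adjustment covered all 16522 genes tested, and a gene with an adjusted p-value under 0.01 was called. CPM use TMM library sizes. Exonic lengths, overlaps and positions were read from GENCODE's GRCm38 annotation, which held 36345 genes of the table. 4 older symbols were matched by RefSeq synonyms. The fit was tested before use on simulated data in which few genes changed, about equally up and down, with variation on the trend. It did not cover changes mostly in 1 direction or genes that vary above the trend. Libraries of 4429704 to 12907778 counts set the precision of the low genes, for which 3 counts correspond to 0.260 to 0.627 CPM.

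The members and lists were chosen with earlier results of these data known. Genes named are the 10 members, *Sox9*, *Eomes*, *Btg2*, in each list the 3 tested genes with the smallest p-value, and the 5 nearest profiles. Genes that the filter removed and that are named as nearly undetected were chosen after their values were seen. Not all genes that the rule selects are reported here. The alternatives tried were library totals or DESeq2's size factors in place of TMM, cyclic loess with limma-trend (limma 3.58.1), DESeq2 1.42.0, dropping the filter, a minimum of 10 counts per library, replicate blocks, leaving out each library, an adjusted p under 0.05, and limma-trend on log2 of FPKM plus 0.1 or 1. Log2 fold changes of FPKM are on that scale, which understates low genes. The mean over the members without *Atf3* was added after seeing the data. Plots were drawn with matplotlib 3.10.9 in Python 3.11.15.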

Additional observations from a re-analysis of the deposited data

Results flagged for a closer look

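Groups of 4 libraries were tested, so only Sox9 libraries were, and the 3 control libraries were not. In 5 of 74 such groups, 1 library stood apart from the other 3 by Dixon's test at its 95% critical value. Chance flags about 1 in 20 such groups, 3.7 of 74. *Dusp1* was at 9.89 CPM in Sox9 replicate 2 and at 13.4 to 14 CPM in the others, which makes this library the lowest of all 7 for the phosphatase. The summed level of the other early transcription factors was 2426 CPM in Sox9 replicate 3 and 2285 to 2296 CPM in the others. That of the feedback regulators was 715 CPM in Sox9 replicate 1 and 638 to 641 CPM in the others. That of the upstream kinases and promoter factors was 1899 CPM in Sox9 replicate 4, the library with the fewest counts, and 2100 to 2129 CPM in the others. *Sesn2* was at 9.25 CPM in Sox9 replicate 3 and at 4.60 to 5.27 CPM in the others.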

How the results depend on the processing

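The number of immediate early genes called was 0 in 17 of 19 alternatives, including each library left out. It was 2 without the filter on low counts (*Fos* and *Egr1*, both lower) and 1 with a replicate block by description numbers (*Fos*). The alternatives on FPKM, which called 0 to 106 of all genes, could hardly call any of them. The median log2 fold change of the genes ranged from -0.48 to 0.017. Reversed values were those of *Ier2* (-0.034 with cyclic loess, -0.032 without the filter, -0.016 with DESeq2, and from -0.23 to 0.72 with a library left out), *Fosb* (-0.57 with cyclic loess), *Nr4a1* (from -0.81 to 0.035 with a library left out, the latter without control replicate 2) and *Dusp1* (0.068 with library totals, 0.066 with FPKM plus 0.1, with or without a mean FPKM of at least 1, and 0.057 with FPKM plus 1). Over all genes, 2429 were called, and 647 with cyclic loess, 4113 without the filter, 843 with at least 10 counts in every library, 5403 at an adjusted p under 0.05, 44 with FPKM plus 0.1, 106 with that and a mean FPKM of at least 1, and 0 with FPKM plus 1 (limma-trend). With a library left out 1035 to 1938 were called, the lowest without control replicate 2, and also 1551 without control replicate 1, 1527 without control replicate 4, 1396 without Sox9 replicate 1 and 1303 without Sox9 replicate 3. Of the genes in the 7 response lists 9 were called, 4 with cyclic loess, 27 with DESeq2, and 5 to 11 with a library left out (5 without control replicate 2, Sox9 replicate 1 or Sox9 replicate 3). *Fos* ranged from -1.01 to -0.33 with a library left out, the latter without control replicate 2. The cause of these differences was not tested.

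Whether replicate numbers pair the libraries is not given in the sources used here. Deviations of same-numbered libraries from their group means correlated at -0.036, 0.118 and -0.005 by title numbers. By description numbers they correlated at -0.036, 0.118 and 0.017. Pairs with different numbers ran from -0.095 to 0.078. Deviations from the means of 3 and 4 libraries cannot decide whether the libraries are paired. With a replicate block by title numbers, 618 genes were called, 1 of them in the response lists, and *Ier2* was at -0.0060 and *Nr4a1* at 0.084. With the block by description numbers, 1387 genes were called, 1 immediate early gene among them, and *Ier2* was at -0.14.

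Low counts limit *Junb*, *Fosb*, *Atf3* and *Arc*, with 3 to 42 counts per library where detected, and control replicate 1 held 0 counts of *Atf3*.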

Other observations

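Several genes that belong to the early response of neurons or stressed cells were close to absent. *Npas4*, a transcription factor induced by neuronal activity, had at most 8 counts in a library and 0 in 2 of the 7. *Egr3* had at most 4 counts and *Ptgs2*, the inducible cyclooxygenase, at most 5. The chemokine genes *Cxcl1* and *Cxcl2* had at most 2 counts each, and *Gdf15*, a secreted stress marker, at most 3. These were among the 28 genes of the response lists that the filter removed, and they were chosen for mention after their values were seen. In the same libraries *Fos* had 347 to 1687 counts.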
